A study of Mus musculus with 32 samples.

Results

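Prostaglandins, thromboxane and leukotrienes are lipid mediators made from arachidonic acid, and the levels of 10 genes that make, sense or degrade them were followed in the lungs of newborn mice exposed to 21% O2 or 85% O2. The genes were Ptgs1, Ptgs2, Ptges, Ptgis, Tbxas1, Ptgir, Hpgd, Alox5, Alox5ap and Alox15, taken by the gene name that the array files give each probe. They had 13 of the 55681 mouse probes on the array, and each of the 10 had at least 1 probe bright enough to be tested, among 17880 named genes with such a probe.

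The mice were C57BL/6J wild-type pups of both sexes, kept with rotated nursing dams, and every pup received an antimiR by intraperitoneal injection. The antimiR was either antimiR-34a, an antisense oligonucleotide that blocks the microRNA miR-34a, or a scrambled antimiR as its control. Exposure to 85% O2 from the first day of life, a model of the arrested alveolar growth of bronchopulmonary dysplasia, or to 21% O2 (normoxia) went on until lungs were taken at post-natal day P5 or P14. Each of the 8 groups (normoxia or hyperoxia, scrambled antimiR or antimiR-34a, P5 or P14) had 4 one-colour arrays of RNA from whole, perfused lungs, so that fewer cells of a type and less RNA per cell could not be told apart. The 4 groups of normoxia or hyperoxia at P5 or P14 each filled 1 slide of 8 arrays, scrambled antimiR in its first row and antimiR-34a in its second. Oxygen, and likewise age, could therefore not be told apart from slide, nor the antimiR from the row on the slide, while each comparison of antimiRs lay within 1 slide. The level of miR-34a itself was not analysed here.

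The pathway starts when phospholipases free arachidonic acid from membranes. The cyclooxygenases, Ptgs1 (largely constitutive) and Ptgs2 (induced by stress and cytokines), turn it into prostaglandin H2, from which terminal synthases make the individual prostanoids; the lipoxygenase Alox5, with its activating protein Alox5ap, starts the leukotrienes instead. In the lung these mediators set vascular and airway tone and attract leukocytes, and the lung itself is a main site where prostaglandins are cleared from the blood.

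The microRNA whose block was compared, mmu-miR-34a-5p, is given as the RefSeq mature sequence (GRCm38.p6, chr4:150068473-150068494, plus strand), with the seed, bases 2 to 8, in capitals.
mmu-miR-34a-5p: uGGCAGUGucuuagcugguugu

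The 250 bases before the RefSeq start of transcription are shown for the 4 genes with the largest oxygen differences among those with a sequence in the table used, as Ptgs2, Ptgs1 and Tbxas1 rose and Hpgd fell in 85% O2. They lie in GRCm38.p6 at chr1:150099781-150100030, chr2:36230176-36230425, chr6:38918736-38918985 and chr8:56294302-56294551, all on the plus strand. Capitals mark matches, on either strand, to the TATA box (TATAAA), the GC box (GGGCGG), the core of the cyclic AMP response element (TGACG) or the E-box (CACGTG); the E-box reads alike on both strands and can share bases with that core.
Ptgs2: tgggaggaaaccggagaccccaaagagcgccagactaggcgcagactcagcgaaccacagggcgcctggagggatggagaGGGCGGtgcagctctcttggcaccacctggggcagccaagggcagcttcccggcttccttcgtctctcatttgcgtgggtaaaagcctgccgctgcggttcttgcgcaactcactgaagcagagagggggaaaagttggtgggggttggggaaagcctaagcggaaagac
Ptgs1: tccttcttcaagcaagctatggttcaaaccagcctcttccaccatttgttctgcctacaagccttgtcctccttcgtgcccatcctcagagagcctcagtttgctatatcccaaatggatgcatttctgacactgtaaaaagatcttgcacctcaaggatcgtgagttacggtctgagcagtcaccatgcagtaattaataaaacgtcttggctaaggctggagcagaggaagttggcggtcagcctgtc
Tbxas1: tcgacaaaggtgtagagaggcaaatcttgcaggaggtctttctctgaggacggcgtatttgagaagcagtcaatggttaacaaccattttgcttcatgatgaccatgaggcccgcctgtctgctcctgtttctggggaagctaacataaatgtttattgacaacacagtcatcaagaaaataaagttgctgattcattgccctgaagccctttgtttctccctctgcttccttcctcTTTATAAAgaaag
Hpgd: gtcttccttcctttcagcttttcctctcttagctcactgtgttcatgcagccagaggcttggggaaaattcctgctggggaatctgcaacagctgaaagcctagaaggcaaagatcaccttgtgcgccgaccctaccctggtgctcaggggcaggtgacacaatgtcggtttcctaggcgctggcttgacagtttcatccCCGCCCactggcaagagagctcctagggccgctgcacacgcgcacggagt

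Of the 7 genes of the 10 with a window in the table, 5 (Ptgs2, Ptges, Ptgir, Hpgd and Alox5) held a GC box, which 32.7% of all 32851 windows of this length held. A TATA box was found for Tbxas1 alone, where TTTATA and TATAAA overlap, against 12.4% of all windows. Neither that core (17.8% of all windows) nor the E-box (6.02%) was found in these 7 windows. These matches are letters in a window and were not tested as binding sites.

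Levels are log2 processed signals relative to the 75th percentile of their array, so that 0 is that percentile and 1 unit is a doubling of signal; they compare arrays for 1 probe and not different probes. Between 33607 and 40776 mouse probes were well above background on an array, and the 75th percentile itself ranged from 9.20 to 10.2 on the log2 scale. In normoxia at P14, replicate 4 with scrambled antimiR was dimmer than the others of its group (9.34 against 10.1 to 10.2) and replicate 1 with antimiR-34a was brighter (10.2 against 9.56 to 9.64). In normoxia at P5, replicate 4 with scrambled antimiR had a summed log2 level of 6 skeletal muscle markers of 6.47, against 1.62 to 3.27 in the other 3. The tests of the 10 genes and of the named pathway genes, on their brightest probes, and the counts of members called were also computed without each array in turn. This was not done for the cell type markers, the second probes, the counts by role or the correlations.

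**Figure D1:**
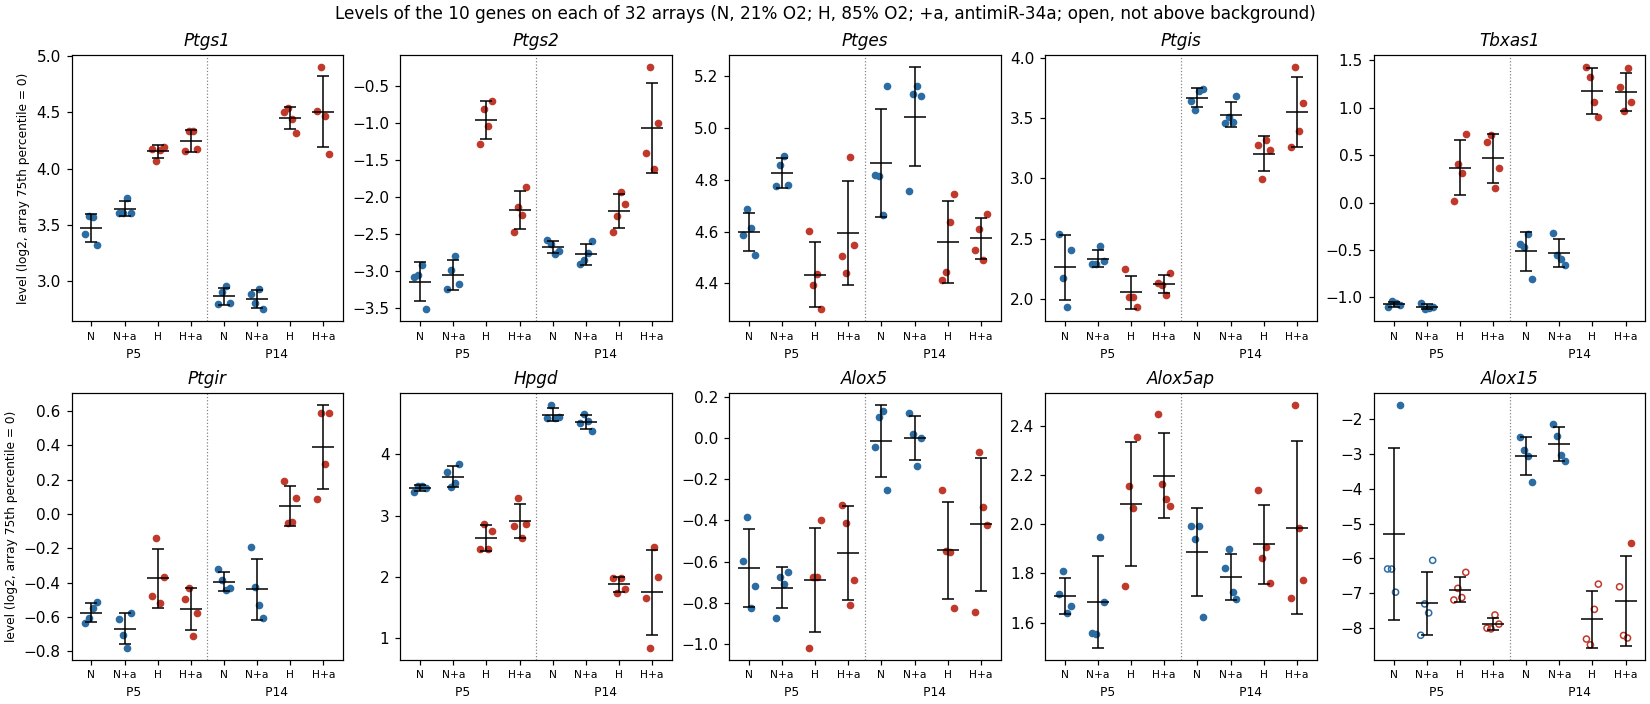
Log2 level (vertical axis, 0 at the array's 75th percentile) of each of the 10 genes on its brightest probe in the 8 groups, with 1 point per array, the mean and the SD (bars, 4 arrays). Open points were not well above background. Ptgs1 and Tbxas1 were higher and Hpgd was lower in 85% O2 (H) than in 21% O2 (N) at both ages, with no overlap.

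At P5 with scrambled antimiR, 4 of the 9 genes tested rose in 85% O2 (Ptgs2, Tbxas1, Ptgs1 and Alox5ap) and Hpgd fell, by the limma fit over all probes with Benjamini-Hochberg adjusted p under 0.05. Of all 16968 named genes tested, 46.5% were called in this comparison, 22.3% higher and 24.2% lower, so 5 of 9 is near that background. The median size of the difference was 0.37 over the 9 genes and 0.25 over all genes (log2). With antimiR-34a the same 5 genes were called in the same directions, against 47.7% of all genes (22.5% higher and 25.2% lower). At P14, 8 of 10 genes were called with scrambled antimiR, 3 higher (Ptgs1, Tbxas1 and Ptgir) and 5 lower (Alox15, Hpgd, Alox5, Ptgis and Ptges), where 63.3% of 17673 genes were called, 32.7% higher and 30.6% lower. With antimiR-34a, 8 of 10 were called again, 4 higher (Ptgs2, Tbxas1, Ptgs1 and Ptgir) and 4 lower (Alox15, Hpgd, Ptges and Alox5), against 65.9% of genes (35.5% higher and 30.5% lower). Alox15 was bright enough to be tested at P14 only through its normoxic groups, so its calls as lower are not independent of that choice.

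**Figure D2:**
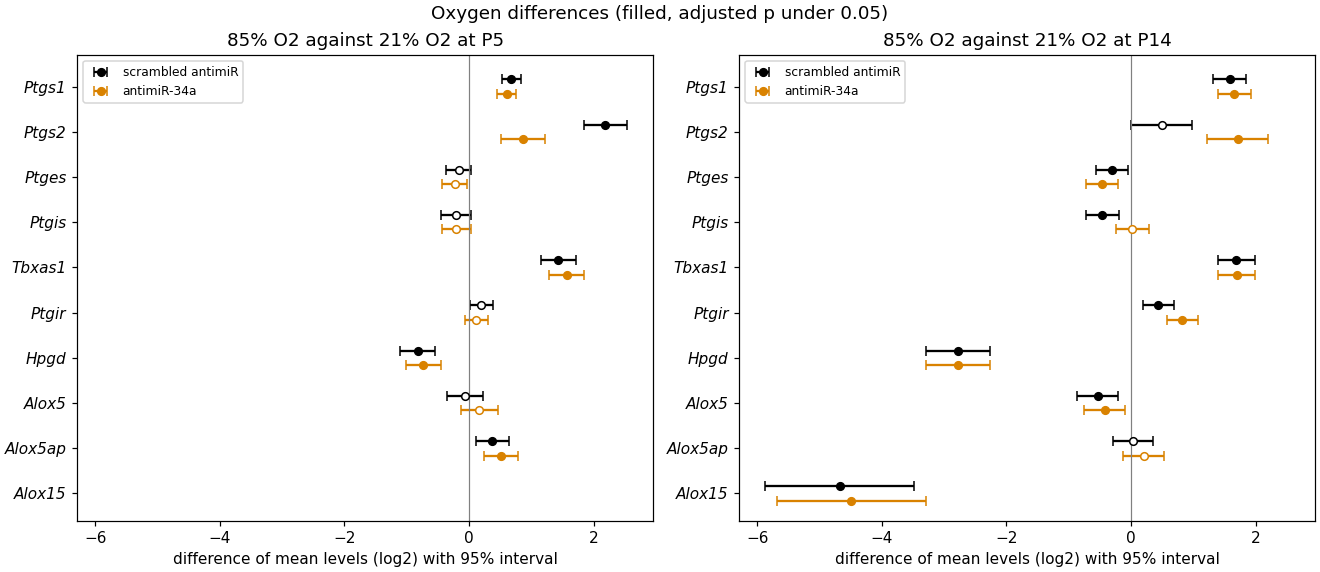
Difference of mean log2 levels between 85% O2 and 21% O2 (horizontal axis, with 95% interval) for each gene at P5 (left) and P14 (right), with scrambled antimiR in black and antimiR-34a in orange; filled points had adjusted p under 0.05. The difference in Ptgs2 was 2.19 at P5 and 0.49 at P14 with scrambled antimiR, and 0.87 and 1.71 with antimiR-34a, while those of Ptgs1, Tbxas1 and Hpgd lay close together for the 2 antimiRs. The P14 points of Alox15 are fitted values against groups mostly at background.

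Ptgs2 encodes cyclooxygenase 2, the inducible enzyme of prostaglandin synthesis. Its probe (mm9 chr1:151954744-151954803, plus strand, 10 spots per array) read -3.08, -3.05, -2.92 and -3.52 (log2 level) in the 4 normoxic lungs with scrambled antimiR at P5 and -1.28, -0.80, -1.03 and -0.70 in the 4 hyperoxic ones. Every hyperoxic array was above every normoxic one, and Ptgs2 was 4.57-fold higher (log2 difference 2.19, SE 0.16, adjusted p = 2.5e-07). With antimiR-34a the P5 levels were -3.24, -2.99, -2.79 and -3.18 in normoxia and -2.48, -2.14, -2.24 and -1.86 in hyperoxia. These groups did not overlap either, but the rise was 1.83-fold (log2 difference 0.87, SE 0.16, adjusted p = 0.00063), and the difference was 0.565 under normexp background correction. At P14 with scrambled antimiR Ptgs2 read -2.58, -2.63, -2.77 and -2.73 in normoxia and -2.48, -2.25, -1.93 and -2.09 in hyperoxia. The arrays did not overlap, yet the difference of 0.49 (SE 0.23) did not pass the test (adjusted p = 0.074); it lay between 0.44 and 0.64 under 10 other ways of processing the data and passed under 5 of them, quantile normalization, the authors' values, array weights, the methods' t-test and the compared groups alone. With antimiR-34a at P14 the levels were -2.91, -2.85, -2.75 and -2.59 in normoxia and -1.41, -0.24, -1.62 and -1.0 in hyperoxia. Ptgs2 was here 3.28-fold higher in 85% O2 (log2 difference 1.71, SE 0.23, adjusted p = 1.8e-05), with replicate 2 the highest array.

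Ptgs1, cyclooxygenase 1 and the main source of thromboxane precursor in platelets, rose in all 4 oxygen comparisons. At P5 with scrambled antimiR its levels were 3.42, 3.58, 3.57 and 3.32 in normoxia and 4.18, 4.07, 4.17 and 4.20 in hyperoxia. The rise was 1.60-fold (log2 difference 0.68, SE 0.07, adjusted p = 5.2e-06), and no array overlapped. At P14 the levels were 2.80, 2.91, 2.95 and 2.81 in normoxia against 4.50, 4.54, 4.44 and 4.32 in hyperoxia. This was a 3.00-fold rise, again without overlap (log2 difference 1.58, SE 0.12, adjusted p = 1.9e-07). With antimiR-34a the differences were 0.61 at P5 and 1.66 at P14 (log2, adjusted p = 1.2e-05 and 1.2e-07). The Ptgs1 probe lies at mm9 chr2:36107644-36107703.

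Tbxas1, thromboxane synthase, makes the vasoconstrictor and platelet activator thromboxane A2 from prostaglandin H2. With scrambled antimiR at P5 the Tbxas1 levels were -1.10, -1.04, -1.06 and -1.08 in normoxia and 0.02, 0.40, 0.31 and 0.72 in hyperoxia. The normoxic lungs lay close together and every hyperoxic one was above them, a 2.71-fold rise (log2 difference 1.44, SE 0.13, adjusted p = 1.7e-06). At P14 the levels were -0.44, -0.47, -0.33 and -0.81 against 1.43, 1.32, 1.06 and 0.90, a 3.23-fold rise without overlap (log2 difference 1.69, SE 0.14, adjusted p = 3.3e-07). With antimiR-34a Tbxas1 rose by 1.57 at P5 and 1.70 at P14 (log2, adjusted p = 6.3e-07 and 3.1e-07). These values are from the probe at mm9 chr6:39034356-39034415; a second probe that the files name Tbxas1 was above background on 0 of the 32 arrays.

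Ptgis, prostacyclin synthase, and Ptgir, the prostacyclin receptor, belong to the vasodilator arm that opposes thromboxane. With scrambled antimiR, the Ptgis levels lay between 1.94 and 2.54 in normoxia and between 1.94 and 2.25 in hyperoxia at P5, a difference of -0.21 that did not pass the test (SE 0.11, adjusted p = 0.14) and moved between -0.32 without replicate 3 of normoxia (adjusted p = 0.017) and -0.12 without replicate 1 (0.40). At P14 they were 3.64, 3.57, 3.72 and 3.74 in normoxia and 3.28, 3.00, 3.32 and 3.24 in hyperoxia, so that Ptgis fell by 0.46 (log2, SE 0.12, adjusted p = 0.0052) with no overlap. With antimiR-34a at P5 the Ptgis difference was -0.20, without overlap, and did not pass. It passed under 2 of 10 alternatives, the compared groups alone and the methods' t-test (lowest adjusted p = 0.028). With antimiR-34a at P14 the difference in Ptgis was 0.02 (95% interval -0.25 to 0.29, adjusted p = 0.89), and its sign changed under several alternatives and without any of 4 arrays. Ptgir at P5 read -0.63, -0.60, -0.55 and -0.51 in normoxia and -0.47, -0.14, -0.52 and -0.37 in hyperoxia, and the difference of 0.20 did not pass (adjusted p = 0.073); it passed with quantile normalization, normexp background correction and the authors' values, at 0.23 to 0.25, and without replicate 3 of hyperoxia (adjusted p = 0.044), but was 0.12 without replicate 2 of hyperoxia (0.24). At P14 Ptgir was between -0.44 and -0.32 in normoxia and between -0.05 and 0.19 in hyperoxia. The arrays did not overlap and Ptgir rose 1.36-fold with scrambled antimiR (log2 difference 0.44, SE 0.12, adjusted p = 0.005) and 1.77-fold with antimiR-34a (0.83, adjusted p = 3.4e-05).

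Ptges, the inducible terminal synthase of prostaglandin E2, gave an answer that differed between its probes. On the brighter probe (mm9 chr2:30744995-30745054) the P14 levels with scrambled antimiR were 4.82, 4.82, 4.67 and 5.16 in normoxia and 4.42, 4.44, 4.64 and 4.75 in hyperoxia. The groups overlapped, the difference was -0.30 (SE 0.12, adjusted p = 0.038), and it kept its call in 3 of 8 fits that each left out 1 array. Without replicate 1 or 2 of hyperoxia, or 1, 2 or 4 of normoxia, the call was lost (-0.21 at the smallest), as it was with no filter on dim probes, only the compared groups (adjusted p = 0.069) or the methods' t-test (0.10). With antimiR-34a Ptges was lower by -0.47 at P14 (adjusted p = 0.0032), with no overlap, and at P5 the differences of -0.17 and -0.23 did not pass. The latter (adjusted p = 0.052) passed under 5 of 10 alternatives and without replicate 3 of hyperoxia (-0.33, adjusted p = 0.0022). On the other probe (mm9 chr2:30748214-30748273) the differences were 0.20 and 0.22 at P5 and 0.29 and 0.82 at P14, of which the last, with antimiR-34a, passed the test in the opposite direction (adjusted p = 0.0115). Averaged over both probes, Ptges was called in neither oxygen comparison at P14 (-0.01 and 0.18 on the log2 scale). The direction for Ptges is therefore that of a probe. With scrambled antimiR the P14 difference of the brighter probe was -0.50 under quantile normalization and with the authors' values.

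Hpgd, the dehydrogenase that inactivates prostaglandins, fell in all 4 oxygen comparisons. At P5 with scrambled antimiR its levels were 3.39, 3.48, 3.49 and 3.46 in normoxia and 2.45, 2.86, 2.45 and 2.75 in hyperoxia, a 1.77-fold lower level without overlap (log2 difference -0.82, SE 0.13, adjusted p = 0.00021). At P14 Hpgd read 4.59, 4.80, 4.60 and 4.62 in normoxia and 1.98, 1.74, 1.98 and 1.80 in hyperoxia. All hyperoxic lungs were far below the normoxic ones, 6.85-fold lower (log2 difference -2.78, SE 0.24, adjusted p = 5.4e-07). With antimiR-34a the differences were -0.73 at P5 and -2.78 at P14, with hyperoxic P14 levels of 1.65, 0.84, 2.49 and 2.00. A second probe for Hpgd gave -0.70 at P5 and -3.23 at P14 with scrambled antimiR. The brighter probe lies at mm9 chr8:58799399-58799458 and the second at mm9 chr8:58798941-58799000.

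Alox5 and Alox5ap start leukotriene synthesis together. The P5 levels of Alox5 with scrambled antimiR were -0.60, -0.38, -0.83 and -0.72 in normoxia and -1.02, -0.67, -0.67 and -0.40 in hyperoxia, overlapping with a difference of -0.06 (95% interval -0.35 to 0.23, adjusted p = 0.75). At P14 they were -0.04, 0.10, 0.13 and -0.25 in normoxia and -0.25, -0.55, -0.55 and -0.83 in hyperoxia, where the nearest arrays were both at -0.25 and Alox5 was 1.44-fold lower (log2 difference -0.53, SE 0.15, adjusted p = 0.0085). With antimiR-34a Alox5 was lower by -0.42 at P14 (adjusted p = 0.027, overlapping groups), a call that was lost without replicate 1 of hyperoxia (-0.28) or replicate 1 or 2 of normoxia, and with the methods' t-test (adjusted p = 0.11). The Alox5ap levels at P5 were 1.72, 1.81, 1.64 and 1.67 in normoxia and 1.75, 2.16, 2.07 and 2.36 in hyperoxia, overlapping groups with a rise of 0.37 (SE 0.125, adjusted p = 0.026). The call was lost without replicate 3 or 4 of normoxia or replicate 2 or 4 of hyperoxia (0.28 at the lowest), and with the methods' t-test (adjusted p = 0.12). Without replicate 4 of normoxia, the array with the muscle markers, it was 0.36 (adjusted p = 0.055). With antimiR-34a the difference was 0.51 (adjusted p = 0.0041) and the groups did not overlap. At P14 Alox5ap differed by 0.03 with scrambled antimiR (95% interval -0.29 to 0.35), and its change of effect between the ages was not called (adjusted p = 0.17).

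Alox15, the 12/15-lipoxygenase that oxidises arachidonate and linoleate, was above background mainly in normoxic lungs at P14. There it read -2.52, -2.89, -3.06 and -3.82 with scrambled antimiR and -2.14, -2.50, -3.04 and -3.22 with antimiR-34a, and all 8 arrays were well above background. In hyperoxia with scrambled antimiR the readings were -8.31, -8.48, -7.46 and -6.74, with 0 of 4 arrays above background (adjusted p = 9.1e-06 by limma). At P14 the probe passed the filter on dim probes only through its normoxic groups, so its lower level in hyperoxia is not independent of that filter. On the processed signals Alox15 was at least 8.22-fold lower in 85% O2. This bound sets the mean of the normoxic arrays against a floor on each hyperoxic array. The floor is the lowest signal well above background, or the probe's own where that was higher. With antimiR-34a 1 of 4 hyperoxic arrays was above background (replicate 4, -5.57) and the levels were again all lower (adjusted p = 1.1e-05). The bound depends on the background correction: under normexp the fitted Alox15 differences were -1.16 and -1.36 on the log2 scale, smaller than that bound, with both calls kept (adjusted p = 0.00014 and 3.2e-05). At P5 Alox15 did not pass the filter on dim probes, and of 16 arrays only replicate 4 of normoxia with scrambled antimiR, the array with the muscle markers, was above background, at -1.62 against -6.97 to -6.30 in the other 3.

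Markers of several cell types moved with oxygen alongside these genes, and their part in the results was not tested. Of 9 macrophage markers, 5 rose and 2 fell in 85% O2 at P5 with scrambled antimiR, and 4 rose and 4 fell at P14. Marco, a scavenger receptor, rose by 1.83 at P5 and 2.40 at P14, while Siglecf, which marks alveolar macrophages and eosinophils, was lower by -0.62 and -2.73 (log2). The summed log2 level of the 9 ranged from 5.51 to 5.78 in normoxia and 5.58 to 6.22 in hyperoxia at P5, and from 6.56 to 7.13 and 6.03 to 6.90 at P14. Of 6 platelet markers only Pf4, which macrophages can also express, rose, by 0.40 at P5 and 1.07 at P14, and Ppbp and Gp6 fell at P14. Their sum, which Pf4 dominates, was 3.02 to 3.40 against 3.33 to 3.76 at P5 and 2.75 to 2.82 against 3.51 to 3.78 at P14. Of 8 mast cell markers, 6 were tested at P5 and 5 at P14, and 4 rose and 1 (Hdc) fell at each age, among them Cma1 by 1.19 and 2.92. Their sum was nevertheless lower in hyperoxia at P5, 3.39 to 3.86 against 3.06 to 3.30, and overlapped at P14, 2.97 to 3.06 against 2.90 to 3.30. Of 8 neutrophil markers 1 fell at P5, and 3 rose and 1 fell at P14, with sums of 4.94 to 5.5 against 5.09 to 5.56 and 4.57 to 5.07 against 4.79 to 5.80. Of 7 smooth muscle and fibroblast markers 6 fell at P5 (sums 7.89 to 8.29 against 7.62 to 7.86), while 2 rose and 2 fell at P14, where the sums were higher in hyperoxia (7.97 to 8.09 against 8.29 to 8.45). Skeletal muscle markers fell at P5 (3 of 6) and P14 (4 of 5, sums 2.22 to 3.30 against 0.53 to 1.19), and of 8 thymus markers 5 fell at P14 (sums 2.07 to 2.32 against 1.58 to 2.23). The epithelial and endothelial markers that define lung (6 of each) were all above background in every group. Of the epithelial ones 2 rose and 1 fell at P5 and 3 rose and 1 fell at P14, and of the endothelial ones 1 rose and 2 fell and 2 rose and 2 fell.

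**Figure D3:**
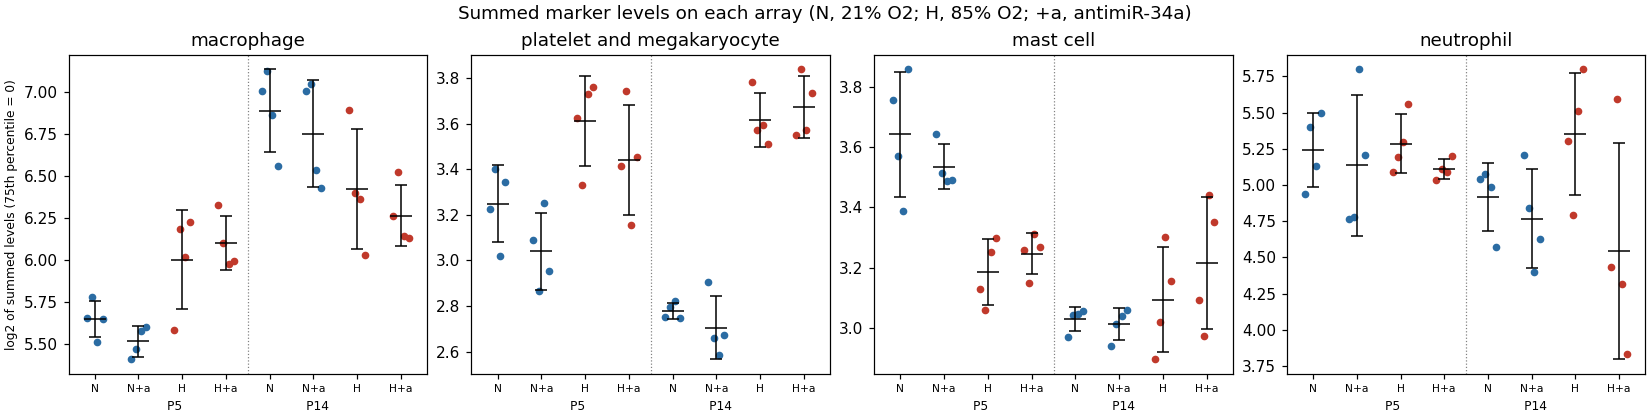
Log2 of the summed levels of the macrophage, platelet, mast cell and neutrophil markers (vertical axes) on each array in the 8 groups, with the mean and SD over 4 arrays. The platelet sum lay between 2.75 and 2.82 in 21% O2 and between 3.51 and 3.78 in 85% O2 at P14 with scrambled antimiR.

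Of the effects of antimiR-34a on these genes, only those on Ptgs2 in hyperoxia were called. In hyperoxia 1 of 9 genes at P5 and 3 of 10 at P14 had an unadjusted p under 0.05 by limma. In hyperoxia at P5, Ptgs2 was the 1 gene called of 9, against 0.0943% of all genes: it read -1.28, -0.80, -1.03 and -0.70 with scrambled antimiR and -2.48, -2.14, -2.24 and -1.86 with antimiR-34a. All 4 antimiR-34a lungs were below all 4 control lungs, a 2.34-fold lower level (log2 difference -1.23, SE 0.16, adjusted p = 0.015), and among 35982 probes its p ranked at place 6. In hyperoxia at P14, Ptgs2 was again the 1 gene called, of 10 and against 2.6% of all genes, but in the opposite direction: -2.48, -2.25, -1.93 and -2.09 with scrambled antimiR and -1.41, -0.24, -1.62 and -1.0 with antimiR-34a. All 4 antimiR-34a lungs were above the control lungs, by 2.18-fold (log2 difference 1.12, SE 0.23, adjusted p = 0.02). In the same comparison 2 of 8 neutrophil markers fell, Ngp by 2.21 and Camp by 1.69 (adjusted p = 0.016 and 0.014), with sums of 4.43, 5.59, 4.32 and 3.83 with antimiR-34a against 4.79 to 5.80 with scrambled antimiR. The sums of 7 smooth muscle and fibroblast markers, 0 of which were called, were 8.21, 8.72, 8.10 and 8.72 with antimiR-34a against 8.29 to 8.45 with scrambled antimiR, and replicates 2 and 4, the higher ones, were also the higher ones in Ptgs2. The part of either marker list in the result was not tested. Without replicate 2 of the antimiR-34a group, its highest array, the difference was 0.85 (adjusted p = 0.0091). The P5 call was lost without replicate 2 or 3 of the scrambled antimiR group or replicate 3 of the antimiR-34a group (adjusted p up to 0.054), and the P14 call without replicate 2 of the scrambled antimiR group or replicate 4 of the antimiR-34a group (up to 0.055). In these comparisons the hyperoxic control arrays were also those of the oxygen comparisons with scrambled antimiR. Both calls came from fits over the 4 groups of an age. They were lost with only the 8 arrays compared, where adjusted p was 0.16 at P5 and 0.13 at P14. With the methods' t-test they were also lost (adjusted p = 0.49 and 0.39), and that test called 0 probes of the whole array in either comparison. The P5 call was also lost with the replicate number as a block (-1.23, adjusted p = 0.053).

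The change in the antimiR-34a effect between the ages was tested directly, as a comparison chosen after these values were seen. In hyperoxia the effect on Ptgs2 at P14 exceeded that at P5 by 2.35 (log2, SE 0.29, adjusted p = 0.00011), place 4 by p among 39162 probes, where 2.78% of all genes were called. The value lay between 2.07 and 2.53 when any 1 of its 16 arrays was left out, and was called each time. P5 and P14 hyperoxic arrays lay on different slides, and each effect was taken between the rows of a slide. A row effect that differed between slides could not be told apart from this change. The difference of the antimiR-34a effect between hyperoxia and normoxia was -1.32 at P5 (SE 0.23, adjusted p = 0.057) and 1.22 at P14 (SE 0.32, adjusted p = 0.14) and did not pass at either age. The P5 value passed under normexp, the filter of every array above background and array weights, and without replicate 1 of the scrambled antimiR or 4 of the antimiR-34a hyperoxic arrays, and the P14 value under array weights. In these interactions 0 of 9 genes (0.0648% of all genes) and 0 of 10 (0.0679%) were called by limma, and 1 and 3 had an unadjusted p under 0.05.

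In normoxia antimiR-34a moved no gene of the 10 past the threshold. At P5 limma called 0 of 9 (2 with an unadjusted p under 0.05, and 1 by the methods' t-test), where 0.118% of all genes were called, and at P14 it called 0 of 10 (0 with an unadjusted p under 0.05 by either test), where 0% were called. The smallest p at both ages was that of Ptges, at 0.23 (adjusted p = 0.24) and 0.18 (adjusted p = 0.60). The difference in Ptgs2 in normoxia was 0.09 at P5 (95% interval -0.26 to 0.44) and -0.10 at P14 (-0.58 to 0.39). Apart from Ptgs2, and from Alox15, which was at background on 7 of 8 of these arrays at P14, the differences in hyperoxia lay between -0.18 and 0.28 at P5 and between -0.13 and 0.34 at P14.

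**Figure D4:**
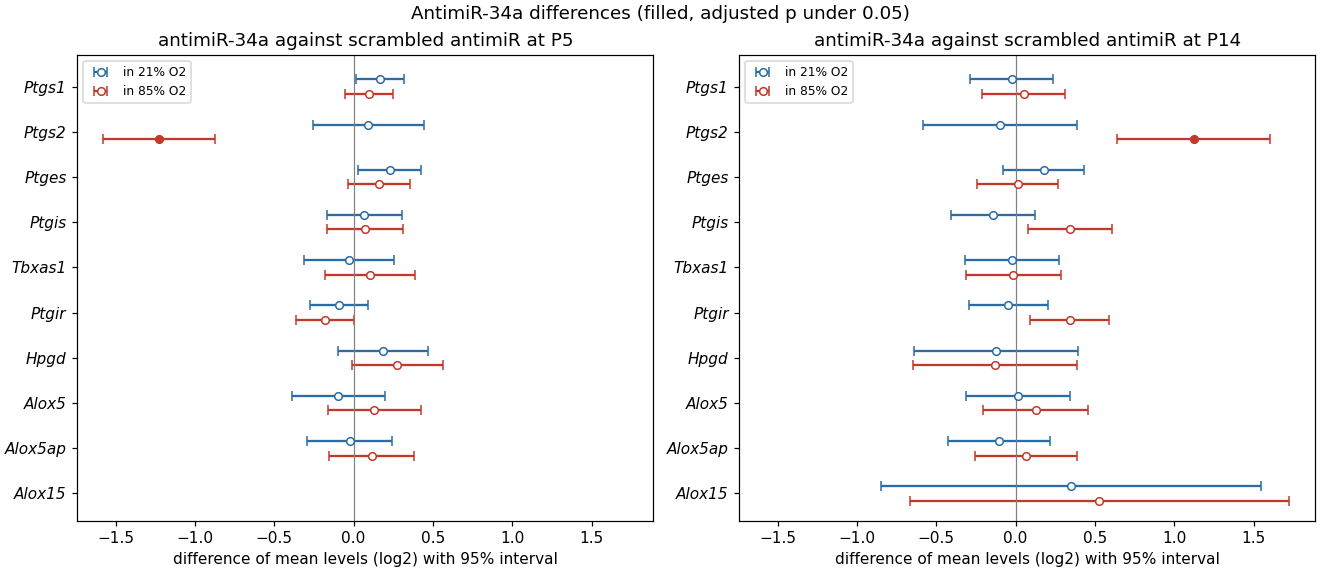
Difference of mean log2 levels between antimiR-34a and scrambled antimiR (horizontal axis, with 95% interval) for each gene at P5 (left) and P14 (right), in 21% O2 (blue) and 85% O2 (red); filled points had adjusted p under 0.05. Ptgs2 in 85% O2, at -1.23 and 1.12, was the only filled point at each age. Alox15 in 85% O2 was at background on 7 of 8 arrays.

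Between P5 and P14 in normoxia with scrambled antimiR, 6 of 10 genes rose and 1 fell, where 53.4% of all genes were called, 28.1% higher and 25.3% lower. Ptgis rose from between 1.94 and 2.54 to between 3.57 and 3.74, a 2.64-fold change (log2 difference 1.40, SE 0.12, adjusted p = 6.8e-10). Hpgd rose 2.29-fold, from between 3.39 and 3.49 to between 4.59 and 4.80 (1.20, SE 0.20, adjusted p = 2.1e-05). Alox5 and Tbxas1 rose by 0.62 and 0.56 (log2, adjusted p = 0.0012 and 0.0015), each without overlap. Ptges rose by 0.27 on its brighter probe (adjusted p = 0.039, overlapping), a call lost without replicate 1, 3 or 4 at P5 or replicate 1 or 4 at P14 (0.17 at the lowest), and under quantile normalization, no filter on dim probes, only the compared groups and the methods' t-test. The sixth, Alox15, was above background on 4 of 4 arrays at P14 and 1 of 4 at P5, so no size is given, and its call (adjusted p = 0.017) was lost without any of the 3 P5 arrays at background, with only the compared groups (0.13) and with the methods' t-test (0.24). Ptgs1 alone fell, by 0.61 (SE 0.10, adjusted p = 1.6e-05), from between 3.32 and 3.58 to between 2.80 and 2.95. Ptgs2, Ptgir and Alox5ap differed by 0.47, 0.18 and 0.18 and did not pass (adjusted p = 0.057, 0.14 and 0.30), although Ptgs2 passed under 3 of 10 alternatives and without replicate 3 at P5 (adjusted p = 0.046), and Ptgir under 4 of 10. Lungs of the 2 ages differed in slide and, per the labels, in the agent used for euthanasia (pentobarbital or isoflurane), and neither could be told apart from age. Cell type markers moved with age as well, and their part was not tested. Of the epithelial, endothelial, macrophage and thymus markers 5 of 6, 4 of 6, 7 of 9 and 6 of 8 rose, with 0 falling. Of the mast cell and platelet markers 5 of 6 and 4 of 6 fell, with 0 rising. Of 8 neutrophil markers 1 rose and 2 fell, of 7 smooth muscle and fibroblast markers 2 rose and 2 fell, and of 6 skeletal muscle markers 1 rose.

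With scrambled antimiR, the test of whether the oxygen effect differed with age called 4 of the 10 genes, where 43.7% of all genes were called, and an effect was measured at both ages for 3 of these 4 (Ptgs1, Hpgd and Ptgs2). It was larger at P14 for Ptgs1 (difference of the effects 0.91 on the log2 scale, adjusted p = 1.9e-05) and, in the downward direction, for Hpgd (-1.95, adjusted p = 8.2e-06). For Ptgs2 it was smaller at P14 (-1.70, adjusted p = 5.1e-05). With antimiR-34a the Ptgs2 oxygen difference was instead larger at P14 (1.71) than at P5 (0.87), and that change was not tested. The fourth was Alox15 (adjusted p = 0.024), for which 1 of 8 arrays with scrambled antimiR at P5 was above background, so that there was no measured P5 effect to set against that at P14. Its call was lost without any of the 3 normoxic P5 arrays at background, under normexp background correction and with only the compared groups (adjusted p = 0.063). For Tbxas1 the effects at the ages differed by 0.25 (95% interval -0.15 to 0.66).

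Across the 32 arrays the members followed few common lines, and the correlations below describe arrays that share groups and slides. Ptgs1 and Hpgd ran in opposite directions (r = -0.95 over 32 arrays), and Tbxas1 ran with Ptgs1 (0.76), Ptgir (0.76) and Ptgs2 (0.72). Of all named genes tested, those most like a member by Pearson r were Tc2n, Tmem141 and Mrpl57 for Ptgs1 (0.98 each), and Lamtor3, Nfe2l2 and Smcr8 for Ptgs2 (0.91, 0.90 and 0.90). Cxcl14, Slc24a3 and Clec10a were the nearest to Ptgis (0.97, 0.96 and 0.96), and Ephx1, AI413582 and Ms4a7 to Tbxas1 (0.97 each). For Hpgd these were Pcdhac2, Mcf2l and Bmp6 (0.98 each), and for Ptges they were Tprkb, Oas1b and Kcna7 (0.95, 0.94 and 0.94). Ptgir was most like Ppp1r2, Vwa1 and Ifi205 (0.93, 0.92 and 0.92), and Alox5 most like Ang, Hacd4 and Ang4 (0.93, 0.89 and 0.89). Alox5ap followed Npc2, Csf2rb and Ifi30 (0.86, 0.86 and 0.83). For Alox15 none are given, as it was above background on 10 of the 32 arrays.

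The rest of the pathway was read from a list of 47 genes, 45 of which were tested. In 85% O2 with scrambled antimiR, 15 rose and 9 fell of 42 tested at P5, and 14 rose and 17 fell of 44 at P14, shares to be read against 46.5% and 63.3% of all genes. The median difference over the list was 0.05 at P5 and -0.04 at P14 (log2), and over all genes -0.02 and 0.00. By role at P5, 4 of 7 genes of arachidonate release fell and 1 rose, while 3 of 4 leukotriene receptors rose and 1 fell, 3 of 7 prostanoid receptors rose and 1 fell, and 3 of 4 genes of prostaglandin transport and breakdown rose. The 8 genes of prostanoid synthesis had 2 higher and 1 lower, the 8 of leukotriene synthesis and breakdown 2 and 2, and of 4 other lipoxygenase and lipoxin genes 1 was higher. At P14, arachidonate release had 1 of 7 higher and 2 lower, leukotriene receptors 1 of 4 and 2, transport and breakdown 1 of 4 and 1, and of 5 other lipoxygenase and lipoxin genes 3 were lower. Also at P14, 4 of 8 other prostanoid synthesis genes rose and 1 fell, 3 of 7 prostanoid receptors rose and 4 fell, and 4 of 9 genes of leukotriene synthesis and breakdown rose and 4 fell.

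Among receptors, Ptger4, a prostaglandin E2 receptor coupled to cyclic AMP, went from between -3.27 and -2.78 in normoxia to between -0.73 and -0.04 in hyperoxia at P14, a 6.19-fold rise (log2 difference 2.63, SE 0.21, adjusted p = 2.3e-07). Ptger3, another prostaglandin E2 receptor, rose by 1.08 at P14 (adjusted p = 5.6e-05). Ltb4r2, the low-affinity leukotriene B4 receptor, was above background on 2 of 4 normoxic and 4 of 4 hyperoxic arrays at both ages, so no size is given, and was called higher at P5 (-6.62 to -5.40 against -5.05 to -4.74, adjusted p = 0.011) and P14 (-8.00 to -6.24 against -4.71 to -4.24, adjusted p = 0.0006). Ltb4r1, its high-affinity counterpart, rose by 0.59 at P5 (adjusted p = 0.016), a call lost without replicate 3 of normoxia or 4 of hyperoxia. With the methods' t-test the P5 calls of Ltb4r2 and Ltb4r1 were lost (adjusted p = 0.078 and 0.11). Cysltr2, a cysteinyl leukotriene receptor, and Ptger1, a prostaglandin E2 receptor, fell at P5 by 0.74 and 0.505 (adjusted p = 0.0012 and 4.2e-05). The Cysltr2 difference was -0.39 under normexp background correction, -0.49 under quantile normalization and -0.48 with the authors' values. Ltc4s, which makes leukotriene C4, and Mgst3 rose at P5 by 0.58 and 0.65 (adjusted p = 0.00029 and 9.5e-06). Ptgr1, a reductase that acts on prostaglandins downstream of Hpgd, rose by 1.23 at P14 (adjusted p = 5.1e-07).

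Pla2g2d and Pla2g10, secreted phospholipases, fell at P5 by 0.70 and 0.93 (adjusted p = 0.00057 and 0.0073), the call of Pla2g10 being lost under quantile normalization, the authors' values and the methods' t-test. At P14 Pla2g2d fell by 1.82 (adjusted p = 1.9e-07), and Pla2g10 was at least 3.84-fold lower on the processed signals, with 0 of 4 hyperoxic arrays above background (adjusted p = 1.2e-05). Ggt5, which converts leukotriene C4 to D4, fell by 2.19 at P14 (adjusted p = 8.6e-05), and Alox12e, an epidermal lipoxygenase, was at least 3.21-fold lower, with 0 of 4 hyperoxic arrays above background (adjusted p = 6e-05). With scrambled antimiR, Pla2g10 and Alox12e at P14 met the filter on dim probes only in normoxia, and Ltb4r2 at both ages only in hyperoxia. The directions of these calls are therefore not independent of that filter. The sizes for these dim probes, and the bounds for Pla2g10 and Alox12e, depend on the background correction. Under normexp the P5 differences were -0.24 for Pla2g2d and -0.42 for Pla2g10, both still called, and Pla2g2d was at -0.41 and -0.39 under quantile normalization and with the authors' values. At P14 they were -0.54 for Pla2g2d and -0.996 for Ggt5 under normexp, and -1.41 for Ggt5 as the mean of its probes. The P5 call of Ltb4r2 was lost under normexp (adjusted p = 0.056) and its P14 call was kept (0.00061). The P14 calls of Pla2g10 and Alox12e were lost under normexp, at -0.39 and -0.295, which are smaller than the bounds given (adjusted p = 0.12 and 0.17).

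**Figure D5:**
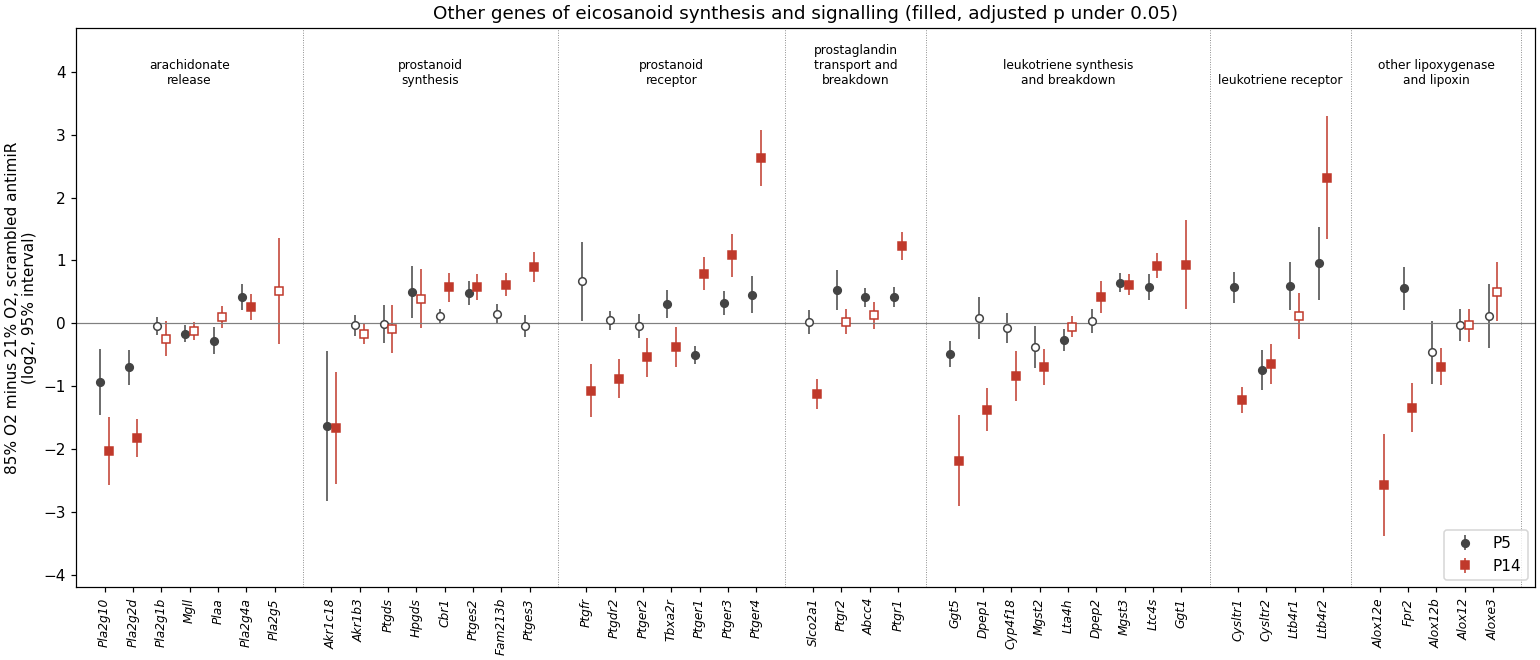
Difference of mean log2 levels between 85% O2 and 21% O2 with scrambled antimiR (vertical axis, with 95% interval) for the listed genes of each role tested at P14, at P5 (grey circles) and P14 (red squares); filled points had adjusted p under 0.05. Ptger4, at 0.46 at P5 and 2.63 at P14, had the highest P14 value of the list. Pla2g10 and Alox12e at P14, and Ltb4r2 at both ages, are fitted values against groups wholly or partly at background.

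In hyperoxia at P14, antimiR-34a was called for 2 of 44 genes of this list, both higher, which is near the 2.6% of all genes called in that comparison. Ptger2, a prostaglandin E2 receptor, went from between -0.83 and -0.11 to between 0.40 and 0.67 (log2 difference 0.85, SE 0.14, adjusted p = 0.0083), with normoxic levels between -0.06 and 0.32 in both antimiR groups. Cysltr1, the main receptor for leukotriene D4, went from between -1.65 and -1.44 to between -1.38 and -0.89 (0.42, adjusted p = 0.037), a call lost under 7 of 10 alternatives and without replicate 2, 3 or 4 of the scrambled antimiR or 3 or 4 of the antimiR-34a group. With only the 8 arrays compared, adjusted p was 0.073 for Ptger2 and 0.17 for Cysltr1, and with the methods' t-test it was 0.33 and 0.38.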

How the data were processed

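RNA of 32 lungs was hybridised to one-colour Agilent mouse arrays, and the deposited intensity values were those the authors read from each array with Agilent Feature Extraction 10.7.3.1 (processed signal, background-subtracted). The authors also deposited a table of normalized log2 values, in which all arrays shared nearly the same distribution, and it was used as an alternative. For the results here, each array's 75th percentile was subtracted from the log2 processed signals, outlier spots (0.211%) were dropped, and repeated spots were combined by their mean. Testing was limited to probes for which some group had all 4 of its arrays well above background. A probe bright in some groups only was thus tested because of those groups, and its direction is not independent of the filter. Differences were tested with limma 3.58.1 in R 4.3.3, with 1 fit of 16 arrays for each age and 1 of 32 arrays for comparisons of the ages, and p-values were adjusted by Benjamini-Hochberg over all probes tested, with a threshold of 0.05. The intervals are 95% intervals of these fits. The number of arrays limits the precision, and p-values measure the spread between these samples.

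A gene is represented by its brightest probe, and shares of genes are over genes so represented. All 10 genes were named, and of the pathway list the 4 largest called oxygen differences in each direction among genes whose groups did not overlap, and those called for antimiR-34a. The members and lists were chosen with earlier results of these data known. Probe positions are those of the files (mm9), and 12 of the 13 probes had an accession in RefSeq. Scripts were tested on simulated data: at P5, on 35982 probes, 82% of probes raised by 1 log2 unit and 44% of those raised by 0.5 were recovered, with 6 false calls, and at P14, on 38455 probes, 66% and 30%, with 8 false calls. Only 50 probes were changed at each size. In the oxygen comparisons with scrambled antimiR 46.5% (P5) and 63.3% (P14) of genes were called, so these rates do not describe recovery there. Alternatives changed the background correction, scaling, probe filter, arrays in the fit, test (the methods' t-test, Welch's with Benjamini-Hochberg), replicate block, array weights and probe choice.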

Additional observations from a re-analysis of the deposited data

Results flagged for a closer look

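Of 80 sets of 4 arrays (10 genes in 8 groups), 5 held 1 array far from the other 3, and chance alone marks about 1 in 20 such sets. Ptgs1 in normoxia with antimiR-34a at P5 read 3.74 in replicate 3 and 3.61 in the others. Ptges in normoxia with antimiR-34a at P14 read 4.76 in replicate 1, against 5.12 to 5.16. Hpgd in normoxia with scrambled antimiR at P14 read 4.80 in replicate 2, against 4.59 to 4.62. Alox5ap in the same group read 1.62 in replicate 4, against 1.94 to 1.99. Alox15 in normoxia with scrambled antimiR at P5 read -1.62 in replicate 4, against -6.97 to -6.30 in arrays where it was not above background.

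With scrambled antimiR the oxygen effect differed between P14 and P5 by limma's test of the difference for Ptgs1 (0.91 on the log2 scale), Ptgs2 (-1.70) and Hpgd (-1.95), where age could not be told apart from slide. With antimiR-34a the Ptgs2 oxygen difference was larger at P14 (1.71) than at P5 (0.87), a change that was not tested. The fitted value for Alox15 (-3.08) also passed, but 1 of its 8 P5 arrays was above background, so it is no measured change. The antimiR-34a effect in hyperoxia differed between the ages for Ptgs2 (2.35).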

How the results depend on the processing

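Over the genes named, and over the alternatives and the fits without 1 array together, 1302 results kept direction and call, 34 gained a call, 71 lost one and 17 changed sign. In hyperoxia at P5, antimiR-34a called 0 of the 9 genes tested with only the compared groups, with the methods' t-test and with the replicate block (Ptgs2 -1.23, adjusted p = 0.053). At P14 in hyperoxia it called 0 with only the compared groups and the t-test, and in normoxia at P14 1 (Ptges) with array weights. The interaction of oxygen and antimiR called 1 gene at P5 under normexp, the filter of every array above background and array weights, and 1 at P14 under array weights. The comparison of antimiR-34a effects between ages called 2 genes under the filter of every array. With 1 array left out, counts ran from 0 to 1 for antimiR-34a in hyperoxia at either age and for the P5 interaction, from 1 to 2 for the comparison between ages, from 4 to 6 and 7 to 8 for oxygen with scrambled antimiR at P5 and P14, from 5 to 7 for age and from 3 to 5 for oxygen by age. The cause was not tested.

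Signs changed for Ptges with the mean of its probes (0.015 at P5 with scrambled antimiR, 0.177 at P14 with antimiR-34a) and for Alox5 at P5 without replicate 2 of normoxia (0.02) or 1 of hyperoxia (0.05). For Alox5ap at P14 they changed under quantile normalization (-0.056), array weights (-0.046) and the authors' values (-0.057), and without replicate 1 of hyperoxia (-0.043) or 4 of normoxia (-0.058), over a range of -0.058 to 0.082 with 1 array left out. For Ptgis at P14 with antimiR-34a the values were 0 under normexp, -0.157 under quantile normalization, -0.132 with array weights and -0.153 with the authors' values, and -0.104 and -0.005 without replicates 2 and 4 of hyperoxia, and -0.004 and -0.001 without 1 and 3 of normoxia, over a range of -0.104 to 0.118 with 1 array left out.

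Deviations of same-numbered arrays correlated between -0.354 and 0.499 over 9 comparisons, with at most 2 of 4 pairs over 0.1, so the numbers were not taken to pair samples. The slide could not be fitted as a block for oxygen or age, because each slide held 1 oxygen level at 1 age. Probes near background, such as that of Alox15, are limited by signal.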
